A study of Danio rerio with 12 samples.

Results

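The genes described here build myelin or specify and mark the glia that make it: mbpa, mbpb, mpz, plp1a, plp1b, cldnk, mag and cd59, together with the lineage factors olig2 and sox10. They were measured in whole zebrafish eyes, which can carry glia of the optic nerve with them. A gene was measured if a probe set of the array named it as its single gene, which held for 6 of the 10 genes: mbpa, cldnk, mag, mbpb, olig2 and sox10, each by 1 probe set. The probe table used here names no probe set for mpz, plp1a, plp1b or cd59, either by symbol or by gene identifier, so these 4 are not analysed here. The 6 measured genes stand among 19260 genes on the array, of which 14002, all 6 included, passed a filter on dim signal and were tested.

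RNA came from 4 groups of 3 pools of eyes, 1 array per pool: mmachc mutants (called homozygous in the titles) at 28 days post fertilization (dpf), fish heterozygous for the mmachc mutation at 28 dpf, mutants at 7 dpf and heterozygotes at 7 dpf. The controls thus carry 1 mutant allele, and no wild-type eyes were analysed here. The product of mmachc processes vitamin B12 inside the cell. Neither the kind of mutation nor the number of fish in a pool is given in the sources used here. The labels do not tie pools to separate clutches. The p-values thus judge a group difference only against the spread among these pools.

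Myelin is a stack of glial membrane wrapped around axons, made by oligodendrocytes in the brain and optic nerve and by Schwann cells in peripheral nerves. Oligodendrocytes arise from precursors that express Olig2 and Sox10, and switch on the genes of myelin proteins as they mature. In zebrafish the axons of retinal ganglion cells become myelinated in the optic nerve during larval and juvenile life. Sox10 also marks neural crest and its pigment cells, and Olig2 is also active in neural progenitors, so neither is specific to myelinating glia.

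Values are log2 intensities after the authors' normalization, and a difference of 1 is a doubling. A gene is called where limma's adjusted p (Benjamini-Hochberg over the 14002 genes) lies under 0.05. Arrays of the same group correlated over genes at 0.989 to 0.994. Levels of different genes are not comparable on an array and are not compared here. On each array the 33rd percentile over all probe sets with 1 gene name lay between 6.14 and 6.26. Signals under it are called dim below, since signal over background was not measured and the size of a change there is inexact. In whole eyes, fewer myelinating cells and less RNA per cell cannot be told apart.

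**Figure D1:**
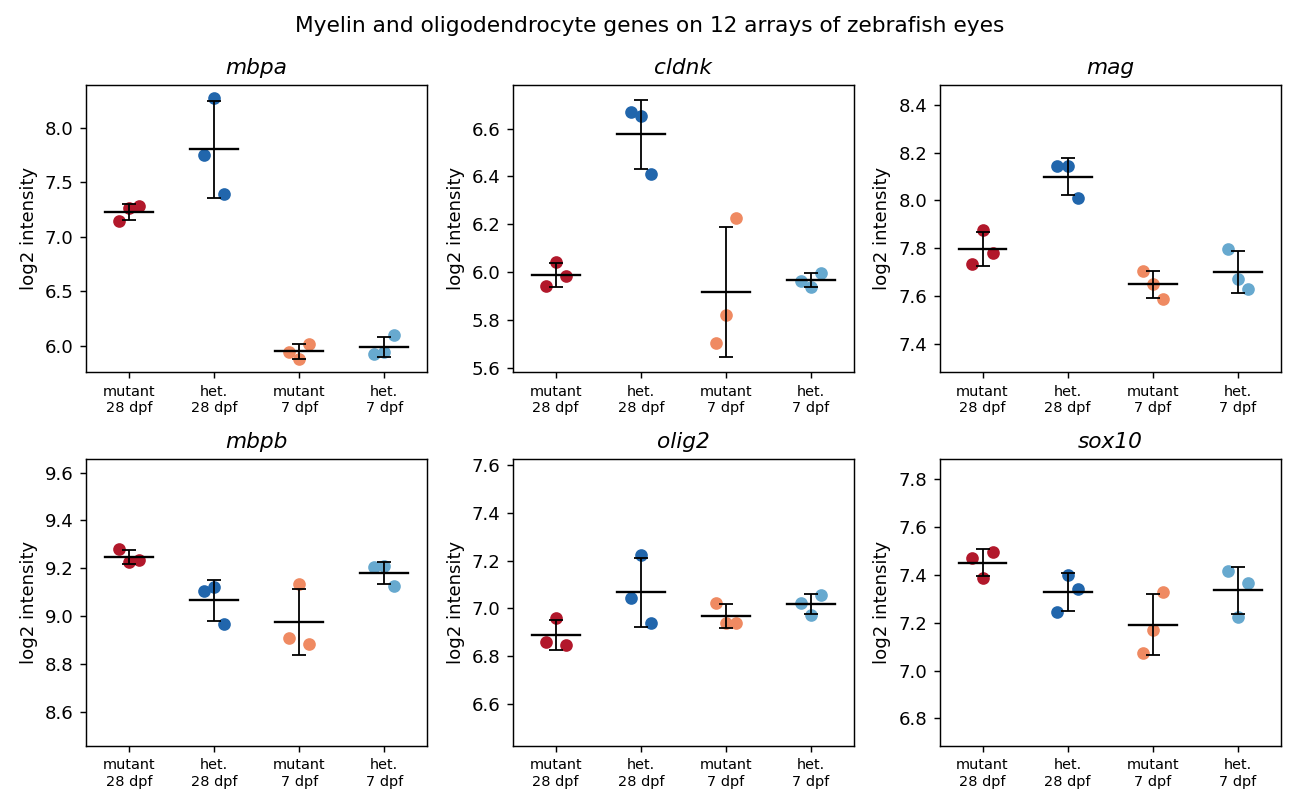
Log2 intensity (vertical axes, each panel with its own range) of the 6 measured genes on the 12 arrays, grouped by genotype and age. Points are pools, black lines group means and error bars the SD (n = 3). For mbpa, cldnk and mag the 3 mutant pools at 28 dpf lie below the 3 heterozygous pools, while at 7 dpf the genotypes overlap in all 6 panels.

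At 28 dpf the question was whether myelin gene transcripts differed between mutant and heterozygous juvenile eyes. Levels of mbpa, cldnk and mag were lower in mutant eyes by 1.49-fold, 1.5-fold and 1.23-fold, and mbpb was higher by 1.13-fold. Neither lineage factor passed the test. Of the 6 genes 3 fell and 1 rose, in a comparison that called 60.8% of all genes tested (39% fell and 21.8% rose). The 3 mutant pools did not overlap the 3 heterozygous pools for 4 of the 6, against 64.4% of all genes. A call is thus common at this age, and the counts do not set these genes apart from the rest.

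The gene mbpa encodes a myelin basic protein, which holds the cytoplasmic faces of the myelin membrane together. Its level was 7.14, 7.27 and 7.28 in mutant eyes at 28 dpf, against 7.75, 8.28 and 7.39 in heterozygous eyes. All mutant pools lay below all heterozygous pools, but the lowest heterozygous pool was close to the highest mutant pool. Mutant minus heterozygous, mbpa differed by -0.58 ± 0.15 (SE) in log2 intensity, with an adjusted p of 0.00376 by limma. The heterozygous pools were spread widely, with an SD of 0.45 against 0.07 in mutant pools. Without heterozygous replicate 2, the highest pool, the difference shrank to -0.34 (adjusted p = 0.0182), and a fit of these 6 arrays alone gave an adjusted p of 0.0121.

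The claudin gene cldnk encodes a tight junction protein that in zebrafish marks myelinating glia. It measured 5.94, 6.04 and 5.98 in mutant eyes at 28 dpf, against 6.67, 6.65 and 6.41 in heterozygous eyes, with a clear gap between the groups. The fall of 0.59 ± 0.12 (95% interval of the difference -0.85 to -0.33, limma adjusted p = 0.000578) was present whichever array was left out, with differences between -0.67 and -0.54. All 3 mutant pools were dim, so the size of the fold is inexact. The gene entered the test through the 3 heterozygous pools at 28 dpf, where it was high, and 1 mutant pool at 7 dpf, so its passing the filter and its difference at 28 dpf are not independent.

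The gene mag encodes a sialic acid binding adhesion protein at the contact of myelin and axon. Its level was 7.74, 7.88 and 7.78 in mutant eyes at 28 dpf, against 8.14, 8.15 and 8.01 in heterozygous eyes. Again the groups did not overlap, and each was tight. The fall was 0.30 ± 0.07 (95% interval of the difference -0.45 to -0.15, limma adjusted p = 0.00167).

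The second myelin basic protein gene, mbpb, is a paralog of mbpa from the duplication of the teleost genome. It measured 9.28, 9.22 and 9.23 in mutant eyes at 28 dpf, against 9.11, 9.12 and 8.97 in heterozygous eyes. Here the mutant pools lay above the heterozygous pools, the opposite side to mbpa. The rise was small, 0.18 ± 0.07 (limma adjusted p = 0.0324), and its call was lost without heterozygous replicate 3 (adjusted p = 0.142), mutant replicate 1 (0.086) or mutant replicate 3 (0.0575) at 28 dpf. It was also lost with all probe sets fitted separately (0.0926) and with array weights (0.0543).

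The factor olig2, a basic helix-loop-helix protein that sets up the oligodendrocyte lineage, measured 6.86, 6.96 and 6.85 in mutant eyes at 28 dpf, against 7.04, 7.22 and 6.94 in heterozygous eyes. The groups overlapped by 1 pool, and the difference of -0.18 ± 0.08 did not pass (95% interval -0.35 to -0.01, limma adjusted p = 0.0691). This outcome held in 7 of 8 other settings (lowest adjusted p = 0.0472) and in 11 of 12 fits without 1 array (lowest adjusted p = 0.0263). The HMG box factor sox10, which drives myelin genes in oligodendrocytes and Schwann cells, measured 7.47, 7.39 and 7.50 in mutant eyes, against 7.24, 7.40 and 7.34 in heterozygous eyes. Its difference of 0.12 ± 0.08 did not pass either (95% interval -0.05 to 0.30, adjusted p = 0.204).

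These values depend on the scaling of the arrays, because the median of the named probe sets was lower on mutant arrays at 28 dpf (7.02, 7.04 and 7.03) than on heterozygous arrays (7.22, 7.24 and 7.23). Centring each array on that median moved the median difference of all genes to 0.11, against -0.09 as deposited, and the share of calls that were rises to 64%, against 35.8%. After centring, mbpa (-0.38, adjusted p = 0.0375) and cldnk (-0.39, adjusted p = 0.0146) still fell and mbpb rose by 0.38 (adjusted p = 0.000104). The fall of mag was no longer called (-0.10, adjusted p = 0.177), the sign of olig2 turned (0.02, adjusted p = 0.847), and sox10 rose (0.32, adjusted p = 0.00406). Over all probe sets, named or not, the array medians lay between 5.64 and 5.70. Centring on the named probe sets is thus a choice, and it would also take out a real shift of those genes.

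**Figure D2:**
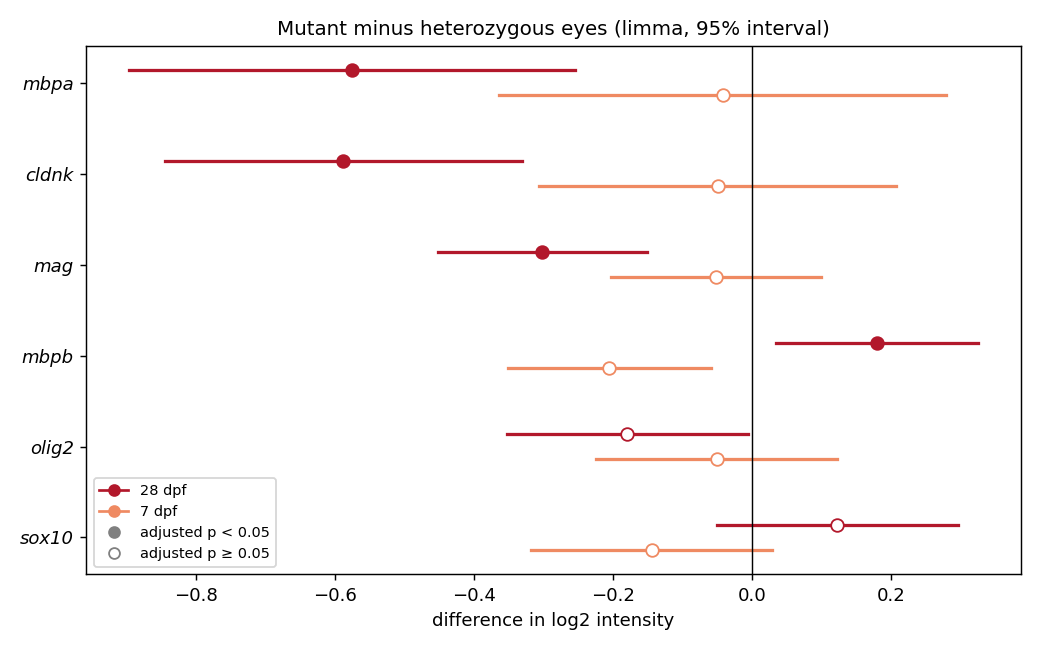
Difference in log2 intensity (horizontal axis) between mutant and heterozygous eyes for the 6 genes, at 28 dpf and at 7 dpf. Points are limma estimates with 95% intervals, filled where the adjusted p lies under 0.05. Filled points occur at 28 dpf for mbpa (-0.58), cldnk (-0.59), mag (-0.30) and mbpb (0.18), and at 7 dpf for none.

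At 7 dpf none of the 6 genes passed, in a comparison that called 12.4% of all genes (4.05% rose and 8.4% fell). Rises made up 32.5% of those calls, and 42.8% after centring. The lowest limma p of the 6 was that of mbpb (0.00881 unadjusted, 0.0634 adjusted). All 6 differences were below 0, with a median of -0.05, against -0.03 over all genes. The genotypes overlapped for each of the 6, where 30.4% of all genes did not overlap.

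Larval mbpa was dim on all 6 arrays, at 5.94, 5.88 and 6.02 in mutant eyes, against 5.93, 5.94 and 6.1 in heterozygous eyes. The groups lay on top of each other, with a difference of -0.04 ± 0.15 and a 95% interval of -0.36 to 0.28 (limma adjusted p = 0.91). Larval cldnk was dim on 5 of 6 arrays, at 5.71, 5.82 and 6.22 in mutant eyes, against 5.96, 5.94 and 5.99 in heterozygous eyes. The mutant pools spread to both sides of the tight heterozygous ones, and the difference was -0.05 ± 0.12 (95% interval -0.31 to 0.21, adjusted p = 0.857). At such dim levels a genotype difference in these 2 transcripts could not be measured well.

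The other genes were above the dim range at 7 dpf. Larval mag measured 7.71, 7.65 and 7.59 in mutant eyes, against 7.80, 7.67 and 7.63 in heterozygous eyes (95% interval of the difference -0.20 to 0.10, limma adjusted p = 0.715). Larval mbpb measured 8.91, 9.14 and 8.88 in mutant eyes, against 9.21, 9.21 and 9.13 in heterozygous eyes. Mutant replicate 2 was the pool that overlapped the heterozygous ones. The difference of mbpb, -0.20 ± 0.07, did not pass (limma adjusted p = 0.0634), and without that pool it was -0.28 (adjusted p = 0.0116).

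Larval olig2 measured 7.02, 6.94 and 6.94 in mutant eyes, against 7.02, 6.97 and 7.06 in heterozygous eyes (95% interval of the difference -0.22 to 0.12). Larval sox10 measured 7.07, 7.17 and 7.33 in mutant eyes, against 7.42, 7.22 and 7.36 in heterozygous eyes (95% interval -0.32 to 0.03). Both lineage factors thus overlapped between the genotypes.

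Whether the genotype difference itself changed with age was tested by the interaction, the difference at 28 dpf minus that at 7 dpf, which was called for 47.2% of all genes (18.1% upward and 29.1% downward). Upward calls were 38.3% of these, and 64.7% after centring. The interaction was called upward for mbpb, 0.39 ± 0.10 (limma adjusted p = 0.00417). For cldnk it was called downward, at -0.54 ± 0.17 (adjusted p = 0.0168). This gene passed the filter mainly through its heterozygous pools at 28 dpf, so its passing and its interaction are not independent. The cldnk call was lost after centring (-0.37, adjusted p = 0.103) and with all probe sets fitted separately (adjusted p = 0.0639), while that of mbpb passed in each of 8 other settings and 12 fits without 1 array (adjusted p up to 0.024).

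For mbpa the interaction was -0.53 ± 0.21 with a 95% interval of -0.99 to -0.08, and it did not pass (limma adjusted p = 0.051). It was -0.74 (adjusted p = 0.00279) without heterozygous replicate 3 at 28 dpf and -0.30 (adjusted p = 0.122) without heterozygous replicate 2. For mag it was -0.25 ± 0.10 (adjusted p = 0.0511), and it was called in 5 of 8 other settings and in 4 of 12 fits without 1 array. Over all 8 settings the adjusted p of mag ran from 0.0222 to 0.486 and its interaction from -0.27 to -0.08. The mbpa interaction was called in 2 of 8 other settings, with array weights (adjusted p = 0.0355) and with the replicate block (adjusted p = 0.0316). Whether the fall of these 2 genes at 28 dpf differs from the difference at 7 dpf thus depends on the setting, with both adjusted p values close to the threshold as deposited. All pools were dim for mbpa at 7 dpf, so the difference that its interaction subtracts could not be measured well. Neither olig2 (-0.13, adjusted p = 0.378) nor sox10 (0.27, adjusted p = 0.0686) passed, although sox10 did after centring (0.44, adjusted p = 0.00771).

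**Figure D3:**
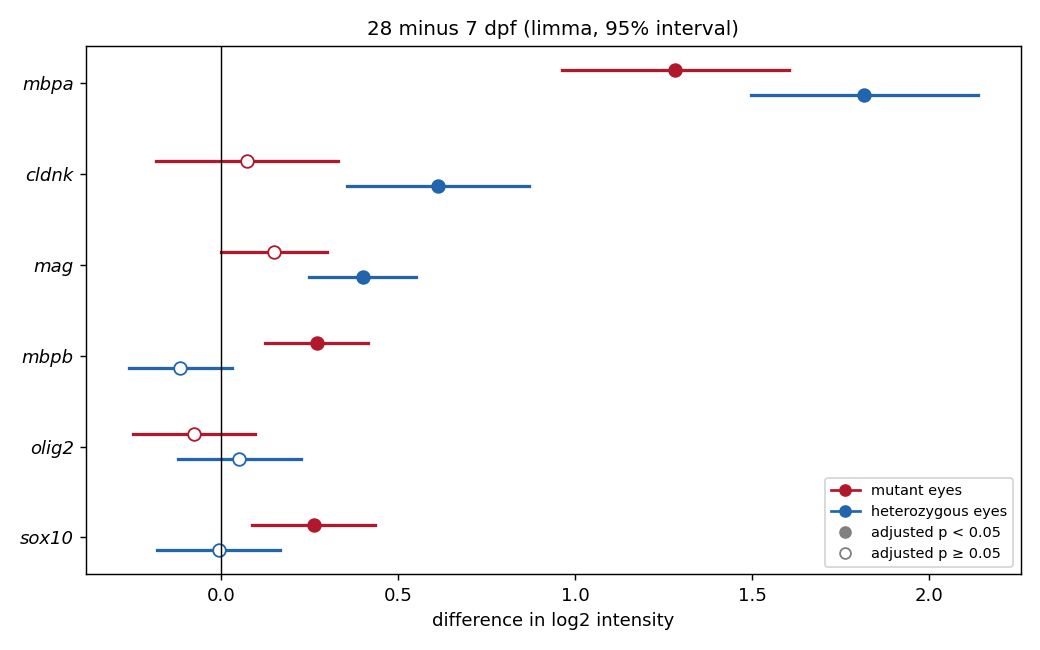
Difference in log2 intensity between 28 and 7 dpf (horizontal axis) in mutant and in heterozygous eyes. Points are limma estimates with 95% intervals, filled where the adjusted p lies under 0.05. The mbpa points, 1.28 in mutant and 1.82 in heterozygous eyes, stand far to the right of the others.

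Between 7 and 28 dpf the largest change among the 6 genes was that of mbpa. In mutant eyes it averaged 7.23 ± 0.07 at 28 dpf and 5.95 ± 0.07 at 7 dpf (SD, n = 3 each), a rise of 1.28 ± 0.15 (SE, limma adjusted p = 2.21e-06), or 2.43-fold. In heterozygous eyes it averaged 7.81 ± 0.45 at 28 dpf and 5.99 ± 0.10 at 7 dpf (SD, n = 3 each), a rise of 1.82 ± 0.15 (SE, adjusted p = 1.11e-07), or 3.52-fold. Of all genes 1.28% changed more with age than mbpa in mutant eyes and 0.557% in heterozygous eyes. Since the 7 dpf signal was dim, these folds are inexact, and mbpa passed the filter only through its 28 dpf arrays, so a rise with age was partly fixed by its being tested.

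In each genotype 3 of the 6 genes rose with age and none fell. Age called 63.9% of all genes in mutant eyes (26% rose and 37.9% fell) and 43% in heterozygous eyes (20.9% rose and 22.1% fell). Rises made up 40.7% of the calls in mutant eyes, and 59% after centring. The 2 ages did not overlap for 4 of the 6 genes in each genotype, against 65.7% of all genes in mutant eyes and 56.3% in heterozygous eyes. Only mbpa was called in both. The other rises in heterozygous eyes were those of cldnk, 0.61 ± 0.12 (limma adjusted p = 0.000731), and mag, 0.40 ± 0.07 (adjusted p = 0.000291). In mutant eyes cldnk differed between the ages by 0.07 ± 0.12 (adjusted p = 0.618) and mag by 0.15 ± 0.07 (adjusted p = 0.0772), and mag was called there after centring (0.28, adjusted p = 0.0012). Mutant eyes thus lacked a called rise of cldnk, whose mutant pools at 28 dpf were all dim. The gene passed the filter mainly through its heterozygous pools at 28 dpf, so its rise there was partly fixed by its being tested. By the interaction above its 2 age changes differed as deposited, under the same limit, and that call was lost after centring.

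The other rises in mutant eyes were those of mbpb, 0.27 ± 0.07 (limma adjusted p = 0.00275), and sox10, 0.26 ± 0.08 (adjusted p = 0.0111). In heterozygous eyes mbpb differed by -0.12 ± 0.07 (adjusted p = 0.191) and sox10 by -0.01 ± 0.08 (adjusted p = 0.955). The sox10 call in mutant eyes did not hold when their first pool of 7 dpf was left out (0.20, adjusted p = 0.0594). Levels of olig2 did not pass in either genotype (-0.08 ± 0.08 in mutant and 0.05 ± 0.08 in heterozygous eyes, adjusted p = 0.42 and 0.649).

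Among the heterozygous pools at 28 dpf, replicate 2 was the highest of the 3 pools for 5 of the 6 genes (cldnk excepted), and replicate 3 was the lowest for 5 (sox10 excepted). In the other groups no pool was highest or lowest for more than 3 genes. The range within a group was widest in heterozygous eyes at 28 dpf for mbpa and olig2, in mutant eyes at 7 dpf for cldnk, mbpb and sox10, and in heterozygous eyes at 7 dpf for mag.

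By the Pearson correlation over the 12 arrays, the genes most like mbpa among those tested were nfixb (0.982), fn1b (0.981), ca16b (0.975) and cd74a (0.973). For mag they were dhrs11b.1 (0.986), slc2a11b (0.975), mmp2 (0.97) and col8a2 (0.964), and for cldnk clasp1a (0.936), add2 (0.931), purg (0.928) and elovl5 (0.922). The 12 arrays fall into 4 groups of genotype and age, so a gene that differs between these groups as a member does can score high. The values are a description only. Of the 4 genes most like mbpa, cd74a, fn1b and nfixb fell at 28 dpf (-1.35, -0.56 and -0.50), while ca16b differed by -0.11 and was not called (limma adjusted p = 0.0711). The genes most like mag and cldnk, which themselves fell at 28 dpf, were all called lower in mutant eyes at that age. Their differences ran from -0.94 to -0.22 (limma adjusted p up to 0.00444). Genes like mbpa, mag and cldnk were picked by likeness to a member that fell at 28 dpf. That choice partly fixed their falls. With the group means taken out, the correlations ran from 0.39 (cd74a with mbpa) to 0.938 (dhrs11b.1 with mag). The 10 listed genes were left out of the search.

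Wider lists of the pathway put the 6 genes among their partners, with counts given here as deposited and then after centring. They are to be read against the 39% of all genes that fell and the 21.8% that rose at 28 dpf as deposited, and nothing particular to a list is drawn from them. Rises made up 64% of the calls over all genes at 28 dpf after centring, against 35.8% as deposited. That 64% is a share of calls and not of genes, so it compares only with the rises among the calls of a list. The share of all genes that rose or fell after centring is not given here, so the list counts after centring lack that measure. Of 15 tested genes of other myelin proteins and glial structure, 3 rose and 4 fell at 28 dpf (6 and 3 after centring; median -0.06, against -0.09 over all genes). Falls were seen in cnp (-0.43 ± 0.09, limma adjusted p = 0.000455), an enzyme of non-compact myelin, in the deacetylase gene sirt2 (-0.89 ± 0.12, adjusted p = 1.34e-05) and in the small heat shock gene cryabb (above the dim range on 6 of 12 arrays; -1.68 ± 0.20, adjusted p = 2.47e-06), which is also expressed in the lens. The tight junction gene cldn11a rose by 0.47 ± 0.11 (adjusted p = 0.00162). All 4 kept these directions and calls after centring.

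Of 14 genes of myelin lipid synthesis and breakdown, 1 rose and 6 fell at 28 dpf (5 and 4 after centring; median -0.17). The largest falls were in galcb (-1.05 ± 0.12) and arsa (-0.81 ± 0.10), whose products break down galactosylceramide and sulfatide, and in the very long chain fatty acid elongase genes elovl1a (-0.997 ± 0.11) and elovl1b (-0.61 ± 0.08). Their limma adjusted p values were 2.16e-06, 2.6e-06, 1.49e-06 and 7.29e-06, and all 4 were called after centring too. The enzymes are also used outside myelin.

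Among 13 lineage factors other than olig2 and sox10, 4 rose and 2 fell at 28 dpf (8 and 0 after centring; median 0.10). The SoxE gene sox8b rose by 0.77 ± 0.09 (limma adjusted p = 1.64e-06), the chromatin remodeller gene chd7 by 0.49 ± 0.05 (adjusted p = 1.51e-06) and myt1b by 0.35 ± 0.06 (adjusted p = 0.000221). Falls of hdac1 (-0.31 ± 0.08, adjusted p = 0.00286) and of myrf, the regulator that turns on myelin genes (-0.19 ± 0.08, adjusted p = 0.0375), were not called after centring (adjusted p = 0.195 and 0.944). The gene myrf was picked out after its values were seen.

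Of 12 precursor genes, 5 rose and 2 fell at 28 dpf (8 and 2 after centring; median 0.20). The proteoglycan gene bcan (0.67 ± 0.09) and the phosphatase gene ptprz1b (0.49 ± 0.07) rose, while cspg4, which encodes the precursor marker NG2, fell by 0.64 ± 0.10 (dim on 5 of 12 arrays) and vcanb by 0.61 ± 0.13 (dim on 4 of 12; limma adjusted p = 1.47e-05, 1.16e-05, 6.24e-05 and 0.000535). Among 15 genes of Schwann cells and of signals to myelinating glia, 7 rose and 1 fell (9 and 0 after centring; median 0.07). The adhesion receptor gene adgrg1 (0.57 ± 0.15), the neuregulin receptor gene erbb3a (0.40 ± 0.10), pou3f2a (0.37 ± 0.10, dim on 8 of 12 arrays) and the neurotrophin receptor gene ngfra (0.34 ± 0.05) were the 4 largest changes of this list (adjusted p = 0.00345, 0.00207, 0.00317 and 3.57e-05). At 28 dpf pou3f2a averaged 6.44 in mutant and 6.07 in heterozygous eyes. It entered the test mainly through those mutant pools, so its passing the filter and its rise are not independent. Of 20 axonal genes of the node of Ranvier and the regions next to it, 4 rose and 2 fell (11 and 1 after centring; median -0.02). The adhesion genes nrcamb (0.69 ± 0.07), cntn1a (0.49 ± 0.09) and nfasca (0.36 ± 0.06) rose and the potassium channel gene kcna1a fell by 0.49 ± 0.09 (adjusted p = 7.31e-07, 0.000324, 3.97e-05 and 0.000194).

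**Figure D4:**
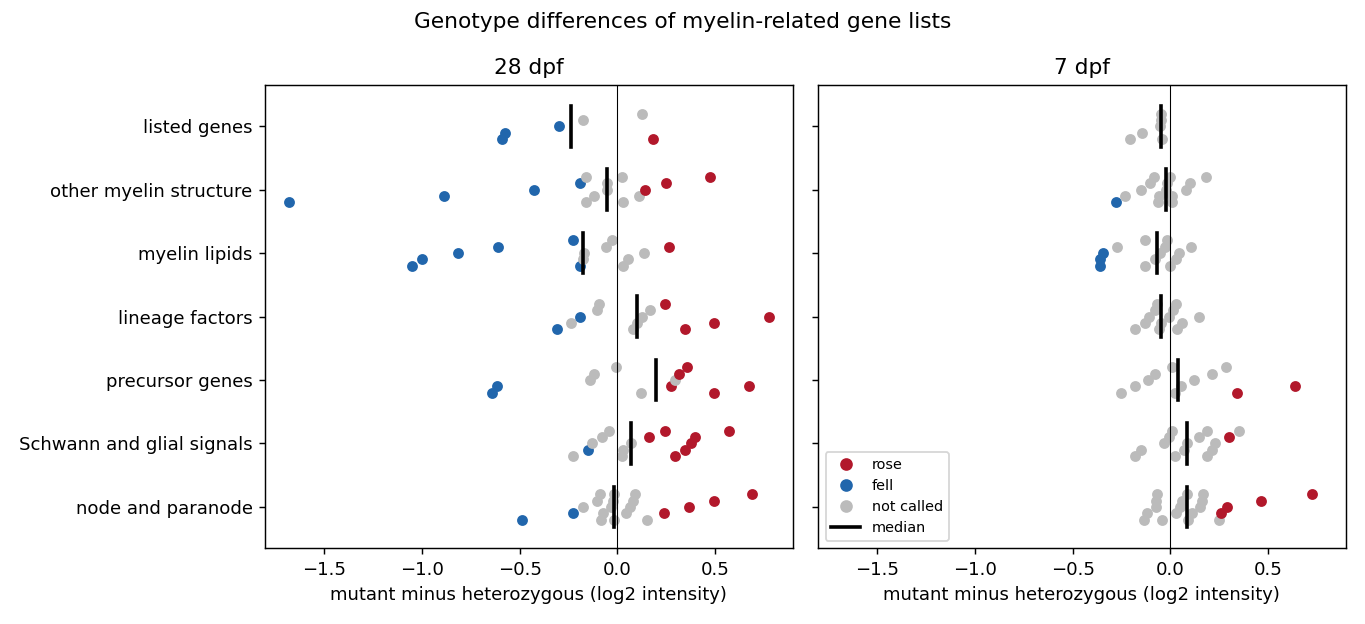
Mutant minus heterozygous difference in log2 intensity (horizontal axes) for each tested gene of the 6 listed and measured genes and of 6 wider lists, at 28 dpf and at 7 dpf. Points are genes, coloured by limma's call, and black bars are list medians. At 28 dpf the medians run from -0.24 for the listed genes to 0.20 for the precursor genes.

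At 7 dpf, where 12.4% of all genes were called, the wider lists held calls too. Axonal genes of the node and paranode had 4 rises of 20 (5 after centring) and no fall. Among them cntnap1, a paranodal partner of contactin, was higher in mutant eyes by 0.72 ± 0.07 (limma adjusted p = 8.45e-06), cntn1b by 0.46 ± 0.06 (adjusted p = 4.98e-05), cntnap2a by 0.29 ± 0.08 (adjusted p = 0.0243) and nrcamb by 0.26 ± 0.07 (adjusted p = 0.024). The proteoglycan genes cspg5b and cspg5a rose by 0.64 ± 0.07 and 0.34 ± 0.07 (adjusted p = 2.12e-05 and 0.00344), as did the kinase gene fynb by 0.30 ± 0.07 (adjusted p = 0.00577). Falls were seen in pmp22b (-0.28 ± 0.08, adjusted p = 0.0323) and in the lipid genes elovl1a (-0.36 ± 0.11), elovl7a (-0.36 ± 0.09) and cers2b (-0.35 ± 0.08; adjusted p = 0.0433, 0.0171 and 0.00565). None of the 13 lineage factors passed as deposited, and hdac1 and yy1a, for example, differed by -0.05 ± 0.08 and -0.01 ± 0.07 (adjusted p = 0.774 and 0.975). After centring 1 of them rose, yy1b (0.17, adjusted p = 0.0334), which as deposited differed by 0.14 (adjusted p = 0.0706).

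Markers of other cells in the eye moved too, and their part in the results above was not tested. Skeletal muscle markers, of a tissue served by myelinated nerve, were higher at 28 dpf, beside the age rise of mbpa. Over 16 tested genes they averaged 6.85 to 7.86 at 28 dpf and 6.39 to 6.60 at 7 dpf in mutant pools, and 7.63 to 7.89 at 28 dpf and 5.90 to 6.43 at 7 dpf in heterozygous pools, on the log2 scale. Some of them, such as myhz2 and actn3a, each above the dim range on 4 of 12 arrays, had dim means at 7 dpf, so the filter partly fixed their rise with age. Between the genotypes at 28 dpf the list had 1 rise and 4 falls of 16 (2 and 2 after centring), where 21.8% of all genes rose and 39% fell as deposited. The largest fall was that of acta1b (-1.21 ± 0.18, limma adjusted p = 3.17e-05), a direction held by 1 of its 2 probe sets. The falls also included atp2a1 (-0.66 ± 0.16, adjusted p = 0.00179), and the rise was that of acta1a (0.58 ± 0.19, adjusted p = 0.0142). The lowest mean at 28 dpf, 6.85, was that of mutant replicate 2. Whether muscle content bears on the level of mbpa was not tested. Retinal ganglion cell markers averaged 8.75 to 8.83 in mutant pools and 8.68 to 8.81 in heterozygous pools at 28 dpf. Of 21 genes 8 rose and 3 fell, so the average hides opposite changes. The falls were those of stmn2a (-0.69, limma adjusted p = 5.36e-07), inab (-0.39) and alcama (-0.20). The rises included isl2a (0.49) and pou4f2 (0.43). Whether the amount of axon to be wrapped differed was not tested. Neural crest and pigment cell markers averaged 8.63 to 8.74 in mutant pools and 8.80 to 8.90 in heterozygous pools, with 3 rises and 7 falls of 16. The rises were those of slc24a5 (0.51), slc45a2 (0.46) and tyr (0.27). The largest falls were those of pnp4a (-0.85), gch2 (-0.83, above the dim range on 9 of 12 arrays) and pnp5a (-0.78). Which cells of the eye these genes came from was not measured, so their average does not gauge the cells with sox10.

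The genes apoeb and csf1ra each stand on 2 of the marker lists. Of the remaining lists at 28 dpf, where 60.8% of all genes were called, Müller glia genes had 6 rises and 1 fall of 15, retinal progenitor genes 7 and 4 of 18, macrophage and microglia genes 2 and 1 of 9, and vascular endothelium genes 4 and 8 of 18. At 7 dpf, where 12.4% were called, the numbers of rises and falls were 0 and 0 for muscle, 1 and 1 for ganglion cell, 0 and 4 for neural crest and pigment, 0 and 5 for Müller glia, 0 and 1 for progenitor, 0 and 1 for macrophage and 1 and 2 for endothelium genes. The centring that raised the share of rises at 28 dpf raised these too, for example to 12 rises and 2 falls in ganglion cell and 8 rises and 5 falls in neural crest and pigment genes.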

How the data were processed

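Each deposited value is a log2 intensity of 1 probe set on 1 array. The authors used Affymetrix Expression Console with RMA, a method that corrects background, equalizes the arrays' distributions and summarises probes, per the submitters' processing notes; versions and a genome build are not given in the sources used here. Labelling, per the labels' protocol, followed guidelines for a human or mouse chip, whereas the probe table used is that of a zebrafish platform. Of 75212 probe sets on 12 arrays, 20806 named 1 gene, 855 several and 53551 none. RefSeq's gene table (assembly GRCz12tu), used for names only, matched 20323 of the 20806 by gene identifier. The brightest probe set stood for a gene. Genes were tested if, on at least 3 of 12 arrays, they exceeded the 33rd percentile over probe sets naming 1 gene.

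All 4 group means entered 1 limma model (limma 3.58.1, R 4.3.3; eBayes with a trend, 8 residual degrees of freedom, Benjamini-Hochberg adjustment over all genes tested, threshold 0.05). The code was tested on simulated data. Groups and replicate numbers came from the titles. Alternatives changed the filter, probe set rule, scaling, variance prior, array weights, arrays entered and replicate block, or left out 1 array.

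Members and lists were chosen with earlier results of these data known. Of each wider list, up to 4 called genes with the largest difference at an age were named, or the 2 brightest if none was called, and for the 3 members with the widest range of group means the 4 most correlated genes, passing over clone names. Of the named genes cers2b, erbb3a, cntn1a and nrcamb have 2 probe sets, whose signs agree in the differences printed. The muscle gene acta1b has 2 as well, and only 1 of them has the sign printed. The number of arrays limits the precision. No sequence is printed because no file used here holds one.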

Additional observations from a re-analysis of the deposited data

Results flagged for a closer look

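The genotype difference changed with age, by limma's interaction test, in 2 of the 6 measured genes and in 47.2% of all genes tested. For mbpb the difference between mutant and heterozygous eyes was 0.18 at 28 dpf and -0.20 at 7 dpf, a change of 0.39 on the log2 scale (adjusted p = 0.00417). The 3 mutant pools lay above the 3 heterozygous pools at 28 dpf. That rise kept its call in 7 of 9 other settings and 9 of 12 fits without 1 array. At 7 dpf the genotypes overlapped and the mbpb difference was not called (adjusted p = 0.0634). For cldnk the difference was -0.59 at 28 dpf and -0.05 at 7 dpf, a change of -0.54 (adjusted p = 0.0168), with most of its pools dim, and this call was lost after centring (-0.37, adjusted p = 0.103) and with all probe sets fitted separately (adjusted p = 0.0639). The gene entered the test mainly through its heterozygous pools at 28 dpf, so its passing the filter and this change are not independent.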

How the results depend on the processing

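Differences of the 6 genes kept their call and, where called, their sign in 237 of 254 refits under other settings (5 calls lost, 12 gained) and in 347 of 360 refits without 1 array (4 lost, 9 gained); no called difference changed sign, and signs of uncalled differences were not counted. With all probe sets fitted separately, which tests other features, calls numbered 17292 at 28 dpf (8513 over genes), 10753 for the interaction (6610), 18880 for age in mutant eyes (8948) and 10393 for age in heterozygous eyes (6021); 0 of the 6 genes rose at 28 dpf and 0 had a downward interaction. Array weights gave 2884 calls at 7 dpf (1743 without), 0 of the 6 genes rising at 28 dpf and 3 with a downward interaction. Centring gave 2 rises at 28 dpf, 2 upward and 0 downward interactions. Averaging probe sets, or eBayes without a trend, gave 2 downward interactions. The causes were not tested. Same-numbered mutant and heterozygous pools deviated together with correlations of 0.139, 0.0882 and 0.0955 at 28 dpf and -0.0682, 0.0552 and 0.122 at 7 dpf. At 28 dpf, but not at 7 dpf, each pool correlated best with its own number. Differently numbered pools at 28 dpf had correlations of -0.0926 to -0.006. The titles number the pools without saying that the numbers pair them, so the main fit did not pair samples. Whether pools were paired at 28 dpf cannot be told from these values. With the replicate block, 1 of the 6 genes fell at 7 dpf (mbpb, adjusted p = 0.0416) and 3 had a downward interaction, and calls over all genes numbered 1962 at 7 dpf, 8697 at 28 dpf and 6796 for the interaction. Without 1 array, the number of the 6 genes that fell at 7 dpf ranged from 0 to 1, that rose at 28 dpf from 0 to 1, with an upward interaction from 1 to 2 and with a downward one from 1 to 3. The fall of mbpa at 28 dpf ranged from -0.78 to -0.34 without 1 array. The filter at the 50th percentile left cldnk untested. Signal over background was not measured, so dim values of mbpa and cldnk at 7 dpf limit what those comparisons can show.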
